A study of Mus musculus with 76 samples.

Results

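The chromatin around the enhancer hs754 was described from every peak deposited for chromosome 13 between 71 and 74 Mb of the mouse genome (mm39), excluding the interval that the humanized allele replaces. That interval runs from 72436074 to 72441214, so the window reaches 1436 kb upstream and 1559 kb downstream of it. Of the 1407375 peaks in the 36 peak lists, 2736 lay in the window. The window was defined by position alone, and no measured value was used to choose its peaks. The line carries a 5531-bp human sequence in place of 5141 bp of mouse sequence, made with CRISPR in C57BL/6J. Homozygous hs754-humanized embryos were compared with wild type embryos of the same strain, and both were profiled as diencephalon at E11.5 and E17.5. Each replicate pooled littermates, 6 embryos at the earlier stage and 3 at the later, and the line represents a single edited allele. The 3 histone marks, H3K27ac, H3K4me3 and H3K27me3, were profiled by ChIP-seq in 2 replicates of each genotype at the earlier stage and 3 at the later. CTCF was profiled at E17.5 alone, in 3 replicates of each genotype, and RNA-seq in 4 of each genotype and stage.

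Iroquois homeobox genes (Irx) encode transcription factors that pattern the neural tube, and Irx1, Irx2 and Irx4 form a cluster that is set in a long stretch with few other genes. H3K4me3 marks active and poised promoters, and H3K27ac marks active promoters and enhancers. The paper states that its H3K27ac antibody lot also recognized an acetylated form of histone H2B, which the H3K27ac peaks here cannot separate. H3K27me3 is deposited by Polycomb complexes and covers the promoters of developmental genes that are silent or expressed in few cells of a tissue. CTCF binds a directional DNA motif and bounds chromatin loops with cohesin.

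No annotated gene overlapped the replaced interval. The window held 66 annotated genes, of which 13 were protein-coding and 39 were long noncoding RNAs. Irx1 lies 324 kb upstream of the interval and Irx2 lies 336 kb downstream of it. Irx4 lies 966 kb downstream, followed by Ndufs6 and Mrpl36, which encode a respiratory complex I subunit and a mitochondrial ribosomal protein. Farther downstream are Lpcat1, a phospholipid-remodelling enzyme, Slc6a3, the dopamine transporter, Clptm1l, the telomerase gene Tert, the amino acid transporters Slc6a18 and Slc6a19, the potassium-chloride cotransporter Slc12a7, and Nkd2, an antagonist of Wnt signalling.

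The sequences of CTCF sites on either side of hs754 are shown because they frame the interval. Each is read on the plus strand of mm39. Capitals mark a match to the core of the CTCF motif (CC, 3 free bases, AG, 2 free bases, GGC), searched on both strands within 100 bp of the summit. A site without capitals had no match in the bases shown. The first 4 sites are those nearest to hs754 on each side. The fifth is the nearest downstream site called in all 6 lists, the next 2 are the strongest sites with a match, and the last was called only in wild type lists.
CTCF site chr13:72372571-72373070, bases 72372730 to 72372830: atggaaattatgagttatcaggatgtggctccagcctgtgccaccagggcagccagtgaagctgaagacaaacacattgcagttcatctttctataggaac
CTCF site chr13:72413731-72413943, bases 72413737 to 72413837: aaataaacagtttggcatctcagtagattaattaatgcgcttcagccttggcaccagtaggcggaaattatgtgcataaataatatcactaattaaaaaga
CTCF site chr13:72442435-72442703, bases 72442473 to 72442573: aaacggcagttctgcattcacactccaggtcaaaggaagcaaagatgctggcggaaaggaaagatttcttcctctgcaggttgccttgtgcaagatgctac
CTCF site chr13:72446868-72447092, bases 72446979 to 72447079: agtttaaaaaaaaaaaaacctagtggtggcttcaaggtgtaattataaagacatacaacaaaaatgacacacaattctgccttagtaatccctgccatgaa
CTCF site chr13:72518216-72518587, bases 72518430 to 72518481: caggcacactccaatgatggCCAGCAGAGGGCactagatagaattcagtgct
CTCF site chr13:73307459-73309190, bases 73308489 to 73308589: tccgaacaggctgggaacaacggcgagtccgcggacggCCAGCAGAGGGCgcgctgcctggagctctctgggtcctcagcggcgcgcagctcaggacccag
CTCF site chr13:73660837-73662233, bases 73661483 to 73661583: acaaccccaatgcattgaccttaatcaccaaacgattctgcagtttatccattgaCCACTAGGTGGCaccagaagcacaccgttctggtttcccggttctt
CTCF site chr13:73667941-73668271, bases 73668038 to 73668138: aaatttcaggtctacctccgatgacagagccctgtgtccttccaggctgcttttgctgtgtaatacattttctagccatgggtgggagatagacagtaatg

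The 250 bases before the annotated start of 4 genes are shown because the marks at these promoters are followed through both stages. They are given on the strand of the gene with CpG dinucleotides in capitals. The Irx1 promoter (chr13:72111849-72112098, minus strand) held 22 CpGs, more than 91.0% of 21603 coding-gene promoters of this length, whose median was 6. The Irx2 promoter (chr13:72776656-72776905, plus strand) held 20 and the Slc6a3 promoter (chr13:73684616-73684865, plus strand) 16. The Irx4 promoter (chr13:73407450-73407699, plus strand) held 3, more than 27.5% of promoters.
Irx1: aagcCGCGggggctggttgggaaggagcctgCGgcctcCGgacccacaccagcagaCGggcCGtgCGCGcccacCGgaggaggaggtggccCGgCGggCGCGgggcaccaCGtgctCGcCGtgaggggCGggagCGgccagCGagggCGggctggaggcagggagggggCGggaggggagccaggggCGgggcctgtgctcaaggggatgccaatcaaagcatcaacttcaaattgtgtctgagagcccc
Irx2: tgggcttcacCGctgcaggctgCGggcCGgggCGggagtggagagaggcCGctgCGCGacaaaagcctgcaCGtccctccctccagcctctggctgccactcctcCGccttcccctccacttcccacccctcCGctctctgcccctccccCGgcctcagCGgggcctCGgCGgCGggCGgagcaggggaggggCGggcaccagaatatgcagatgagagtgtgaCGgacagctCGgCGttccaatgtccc
Irx4: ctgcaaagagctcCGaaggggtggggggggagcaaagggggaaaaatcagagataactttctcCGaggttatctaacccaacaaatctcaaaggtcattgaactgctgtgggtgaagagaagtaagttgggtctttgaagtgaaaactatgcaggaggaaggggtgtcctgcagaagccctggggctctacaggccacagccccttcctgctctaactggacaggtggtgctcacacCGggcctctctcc
Slc6a3: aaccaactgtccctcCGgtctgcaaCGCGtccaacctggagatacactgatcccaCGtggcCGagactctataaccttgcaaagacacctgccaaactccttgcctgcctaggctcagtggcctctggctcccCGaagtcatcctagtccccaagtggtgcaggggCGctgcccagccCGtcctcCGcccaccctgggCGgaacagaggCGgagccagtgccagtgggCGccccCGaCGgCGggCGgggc

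Peaks that overlapped between the lists of a mark and stage were merged into regions. The level of a region is its fold enrichment over local background, as the peak caller gave it, taking the highest peak where a list had several. H3K27me3 lists held 28 to 55 window peaks at the earlier stage and 139 to 318 at the later. H3K27ac lists held 41 to 50 and then 45 to 70, H3K4me3 lists 28 to 36 and then 27 to 32, and CTCF lists 62 to 101. List sizes differed across the genome as well. At E17.5 the smallest H3K27ac list was humanized replicate 3, with 47121 peaks against up to 77406 in the others. H3K27me3 lists ran from 19187 peaks in humanized replicate 3 of that mark to 43691 in wild type replicate 1. Read depth is unknown for peak lists, and no interval for a single peak value is given. Nothing in the labels says that replicates came from separate crosses, so p-values measure the spread between these litter pools.

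Reproducible regions, those called in every list of a mark and stage, were few. H3K27ac had 25 at the earlier and 29 at the later stage, H3K4me3 had 23 and 24, H3K27me3 had 21 and 56, and CTCF had 49. The H3K27me3 domain that crosses hs754 at E17.5 is split by the excluded interval and counts as 2 of the 56. Promoters were taken as regions within 1 kb of a transcription start of a coding gene. They made up 12 of the 23 H3K4me3 regions at E11.5 (52.2%, against 73.4% in the rest of the genome). Of the 56 H3K27me3 regions at E17.5 they made up 7 (12.5%, against 43.6%). Both shares were below those of the rest of the genome. The window's H3K27me3 regions at E17.5 were thus mostly distal to coding promoters. H3K27me3 at E17.5 also covered 10 of the 25 H3K27ac regions of E11.5 (40%, against 11.6% elsewhere), which met 7 of the 56 H3K27me3 regions. It covered 20 of the 49 CTCF regions (40.8%, against 11.3% elsewhere), which met 12 of the 56. Within a stage, H3K27me3 covered 6 of the 25 H3K27ac regions of E11.5 (24%, against 10.5% elsewhere). It covered 12 of the 29 of E17.5 (41.4%, against 10.7% elsewhere). Coverage by H3K27me3 at E17.5 was itself 5.91 times as high in the window as in the genome. Whether the shares exceed what that coverage alone gives was not tested. These shares describe calls in bulk tissue, where the marks may lie in different cells.

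**Figure D1:**
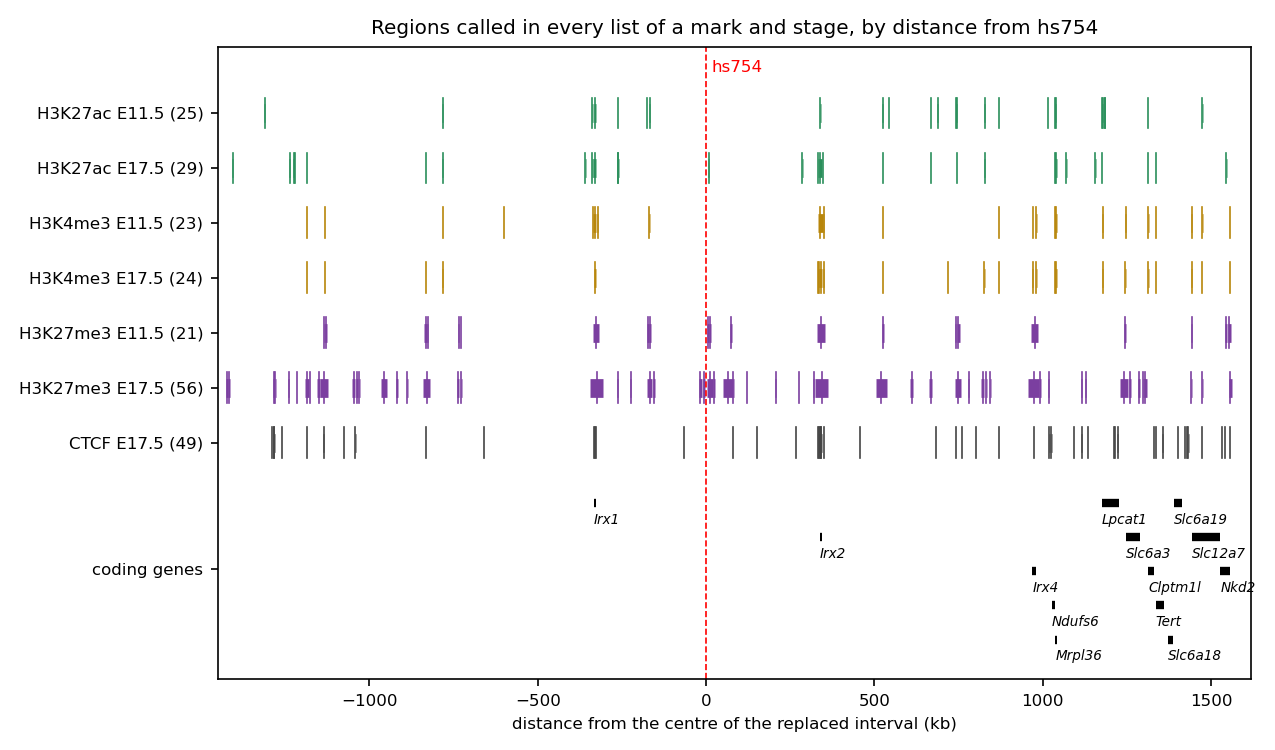
Regions called in every list of each mark and stage, drawn to scale by distance in kb from the centre of the replaced interval (0 on the horizontal axis), with the coding genes below. H3K27me3 at E17.5 has 56 regions against 21 at E11.5, and the 49 CTCF regions lie 14 upstream and 35 downstream of hs754.

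The strongest histone marks of the window lay at its gene promoters and at the Irx genes. Lpcat1 had the highest H3K4me3 enrichment at both stages, with 62.8 ± 5.82 (SD, n = 4) and then 69.6 ± 14.4 (SD, n = 6). Irx1 and Irx2 carried H3K27ac over 8256 and 6385 bp, H3K4me3 over 8702 and 14182 bp and H3K27me3 over 38887 and 38166 bp, when the lists of both stages were merged. The Irx4 promoter carried the strongest H3K27me3 region of the window, 32049 bp long, together with H3K4me3 over 1170 bp, and no H3K27ac region was called at that promoter.

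CTCF lay unevenly around hs754. Of the 49 sites called in all 6 lists, 14 were upstream and 35 downstream of the interval, and the core motif was found at 2 and 17 of them. The downstream motifs were on the plus strand at 9 sites and on the minus strand at 8. In all, 19 of 49 sites (38.8%) held the motif, against 43.9% of 43260 such sites in the rest of the genome. The strongest site, 866 kb downstream between Irx2 and Irx4, had a fold enrichment of 64.3 ± 4.32 in wild type and 54.4 ± 13.6 in humanized lists (SD, n = 3 each). The nearest sites called in every list were 63.0 kb upstream and 77.0 kb downstream of the interval, with hs754 between them.

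The comparison of stages asks how the neighbourhood changed between E11.5 and E17.5, and pooled the lists of both genotypes. H3K27me3 spread over the window: it covered 4.81% ± 1.003 (SD, n = 4) at the earlier and 16.6% ± 4.22 (SD, n = 6) at the later stage. Single lists ranged from 3.44% to 5.76% and then from 11.54% to 24.1%, so the stages did not overlap. Since lists differ in size, coverage was also divided by that of the whole genome in the same list, which gave 2.45 ± 0.329 and then 5.91 ± 0.679. The exact two-sided permutation test over lists gave p = 0.00952 for both measures, the smallest value that 4 lists against 6 allow. Adjusted by Benjamini-Hochberg over the 12 stage tests of coverage and peak number, it was 0.0127. H3K27ac coverage moved the other way relative to the genome, from 1.29 ± 0.0902 to 0.768 ± 0.0636, and H3K4me3 from 1.05 ± 0.0159 to 0.856 ± 0.0221 (exact permutation test, p = 0.00952 each). The share of the window under H3K27ac went from 1.44% ± 0.165 to 1.97% ± 0.508 (exact permutation test, p = 0.0762).

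**Figure D2:**
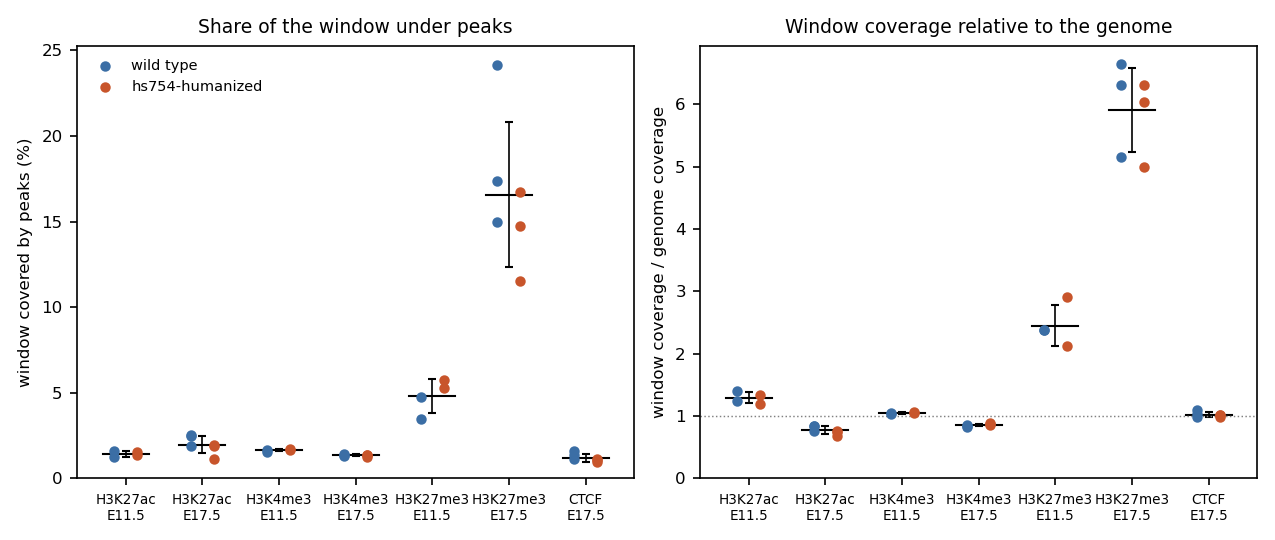
Share of the window covered by peaks of each list (percent) and the same coverage relative to the whole genome, by mark and stage, with 1 point per list coloured by genotype and lines for the mean and SD over lists. H3K27me3 coverage relative to the genome lies between 2.12 and 2.90 in E11.5 lists and between 4.99 and 6.64 in E17.5 lists.

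Stage, litter pool size and preparation changed together and cannot be told apart here. Marker genes in the RNA of the same tissue also moved with stage. All 11 diencephalon and neural genes were detected at both stages, with a summed level of 2308 to 3293 CPM (counts scaled to a common library size) at the earlier stage and 2389 to 4564 at the later. That sum is mostly Tubb3 and Tcf7l2, and 4 of the 11 genes were lower at the later stage without overlap: Otx2 (274 to 333 CPM and then 32.6 to 44.0), Barhl2 (88.0 to 117 and then 9.95 to 16.2), Pax6 (167 to 215 and then 39.1 to 52.8) and Sox2 (229 to 275 and then 133 to 199). Among all genes tested, 38.9% were called lower and 38.1% higher at E17.5 (edgeR adjusted p under 0.05). That share rests on a test and not on overlap, and it is about as large as that of these markers. The choroid plexus marker Ttr went from between 0 and 3.75 CPM at E11.5 to between 93.2 and 476 CPM at E17.5. The sum of 3 mesenchyme markers went from 344 to 514 CPM to 144 to 219. Within it Col1a1 was lower at the later stage (280 to 446 and then 58.4 to 140), as was Twist1, and Pdgfra was higher (44.8 to 58.1 and then 77.4 to 107). Blood (3 genes, 72.2 to 246 CPM and 51.0 to 240) and vessel markers (2 genes, 123 to 172 and 68.9 to 166) overlapped between stages, and of 3 hindbrain and spinal cord markers (0.389 to 11.49 and 0.979 to 3.32) Hoxc8 was at 0 throughout. The part of these cell types in the differences between stages was not tested. In bulk samples, fewer cells of a type and less signal per cell cannot be told apart.

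Enrichment at the Irx1 and Irx2 promoters fell for both activating marks between E11.5 and E17.5. H3K27ac at Irx1 (chr13:72104130-72112385) was 27.4 and 30.3 in wild type and 28.1 and 35.1 in humanized lists at E11.5. At E17.5 it was between 10.8 and 19.98, with a median of 14.0, and every E17.5 list lay below every E11.5 list. Lists of the 2 stages were centred on the median region of each list before testing with limma, because the median H3K27ac region was higher by 0.83 on the log2 scale at E17.5. On that scale, H3K27ac at Irx1 changed by -1.87 (SE 0.20, limma adjusted p = 7.26e-09). At Irx2 (chr13:72775278-72781662) H3K27ac changed by -1.55 (SE 0.23, limma adjusted p = 1.53e-06), although the deposited values, 16.2 to 27.2 and then 8.16 to 21.0, overlapped.

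H3K4me3 followed at both promoters. At Irx1 (chr13:72104036-72112737) it was 61.3 and 59.5 in wild type and 43.5 and 57.7 in humanized lists at E11.5, and 16.6 to 32.2 at E17.5 (log2 change -1.45, SE 0.19, limma adjusted p = 4.27e-05). At Irx2 (chr13:72770762-72784943) it went from 28.7 to 52.7 at E11.5 to 21.6 to 31.7 at E17.5 (-0.98, SE 0.18, limma adjusted p = 7.63e-04). The stages were separate at Irx1 and overlapped at Irx2 through humanized replicate 2 of E11.5. H3K27me3 over the same genes rose relative to the median region, by 0.32 at Irx1 and 0.45 at Irx2 (SE 0.062 and 0.067), from 9.40 ± 1.35 to 10.2 ± 0.670 and from 9.51 ± 1.37 to 11.3 ± 1.40 (SD, n = 4 and 6). The rise at Irx1 did not hold where the mean peak of the region was used in place of the highest (-0.012).

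At Irx4, H3K27me3 fell. Its H3K27me3 region (chr13:73396353-73428401) was 24.9 and 21.1 in wild type and 23.4 and 29.3 in humanized lists at E11.5. At E17.5 its values were 15.4, 14.0 and 14.0 in wild type and 13.9, 12.7 and 12.2 in humanized lists. All E17.5 lists lay below all E11.5 lists, a change of -0.65 (SE 0.052, limma adjusted p = 1.75e-11), while the region remained the highest of this mark in the window. H3K4me3 at the Irx4 promoter was 12.5 ± 1.54 and 15.6 ± 2.64, a centred change of 0.015 (limma adjusted p = 0.953).

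At Slc6a3, the dopamine transporter, the level of H3K4me3 rose and that of H3K27me3 fell, though its H3K27me3 region was still called in every list. H3K4me3 at its promoter (chr13:73684154-73685289) was 6.32 and 14.2 in wild type and 6.58 and 9.10 in humanized lists at E11.5, and 20.6 to 30.5 at E17.5. The stages did not overlap (1.28, SE 0.19, limma adjusted p = 2.04e-04). Its H3K27me3 region (chr13:73669379-73692050) went from 9.28 ± 1.37 to 6.69 ± 0.858 (-0.28, SE 0.093, limma adjusted p = 0.0093). H3K27me3 at the annotated start of Slc12a7 (chr13:73878265-73883195) rose from 2.91 to 4.03 at E11.5 to 5.13 to 6.30 at E17.5 (0.87, SE 0.078, limma adjusted p = 1.53e-10). H3K4me3 at an internal start of Slc12a7 (chr13:73911150-73914665) fell from 52.1 ± 5.27 to 31.4 ± 8.60 (-1.07, SE 0.18). At its annotated start (chr13:73880559-73881643) H3K4me3 was 12.999 ± 1.57 and then 14.99 ± 1.34 (-0.086, SE 0.15, limma adjusted p = 0.70).

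**Figure D3:**
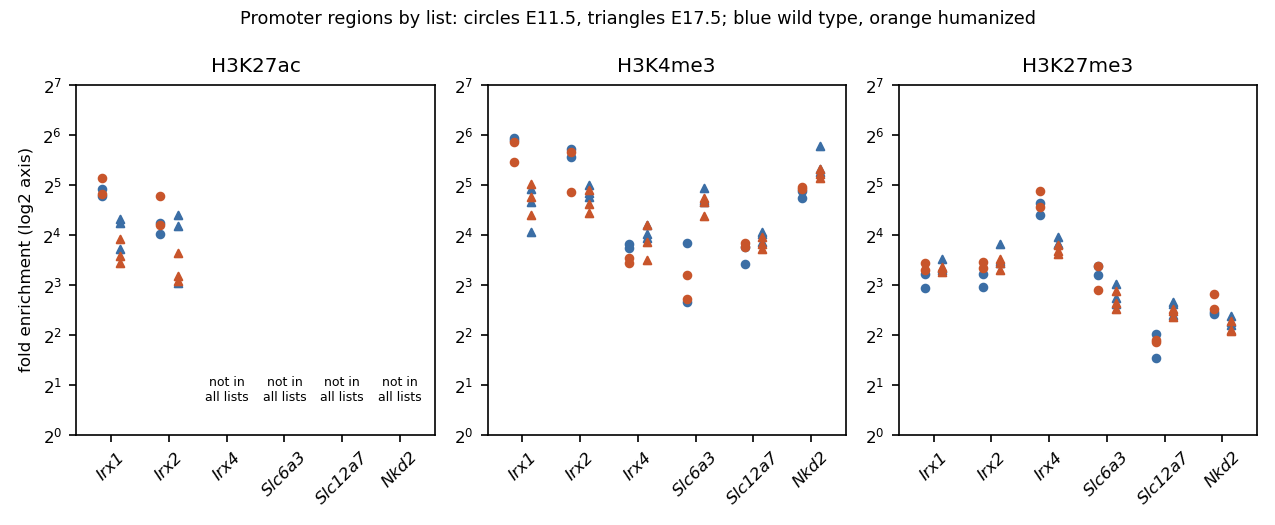
Fold enrichment (log2 axis) at promoter regions of the window for each mark (Slc12a7 at its annotated start), with 1 point per list, circles for E11.5 and triangles for E17.5, blue for wild type and orange for humanized. H3K4me3 at Slc6a3 lies between 6.32 and 14.2 in circles and between 20.6 and 30.5 in triangles, and H3K27me3 at Irx4 moves down from 21.1 to 29.3 to 12.2 to 15.4.

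Over the whole window, 14 H3K27ac regions were called in all 10 lists, of which 7 were lower at E17.5 and 0 were higher. Across the genome 33.3% of regions were lower and 18.2% higher, and 6 of the 14 window regions were promoters. Of the 7, 2 were the Irx promoters and 5 were distal. Without centring, 6 of the 14 were higher and 4 lower, so the direction of most depends on the scale, but the Irx1 and Irx2 promoters and the strongest 2 distal regions were lower on both. The distal pair comprised chr13:72962316-72965520, in an exon of the noncoding gene D730050B12Rik, and chr13:73182831-73184767, 742 kb downstream of hs754. The first went from 9.38, 11.999, 11.6 and 12.6 in the E11.5 lists to 3.40 to 4.63 in the E17.5 lists (-2.37, SE 0.21, limma adjusted p = 1.27e-10). The second went from 11.9 to 20.9 to 4.93 to 8.04 (-2.03, SE 0.20, limma adjusted p = 9.38e-10), and the stages did not overlap at either.

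Of 19 H3K4me3 regions called in all 10 lists, 3 were higher and 5 lower at E17.5, against 12.8% and 12.6% of regions in the genome. Without centring, 6 were higher and 3 lower; the median region was higher by 0.30 on the log2 scale at E17.5. Besides Slc6a3, the higher regions were a distal region at the strongest CTCF site (chr13:73307997-73308886) and chr13:71252562-71253591, which also overlaps a strong CTCF site. At the former, H3K4me3 was 4.37, 4.96, 2.27 and 6.34 at E11.5 and 9.80 to 15.5 at E17.5 (1.40, SE 0.23, limma adjusted p = 4.03e-04). Both of these regions thus shared their position with CTCF, as did 11 of the 24 H3K4me3 regions called at E17.5 (45.8%, against 43.5% in the rest of the genome).

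H3K27me3 levels rose at 12 and fell at 2 of the 15 regions called in all 10 lists, against 35.3% and 39.2% across the genome. The 9 distal regions were all higher. Without centring, 4 were higher and 3 lower, since the median H3K27me3 region was lower by 0.19 on the log2 scale at E17.5, and 7 regions in all passed the test. The largest rise was at hs754 itself: the region from the interval to chr13:72459674 was 5.36 and 4.15 in wild type and 3.80 and 5.25 in humanized lists at E11.5, and 7.66 to 8.68 at E17.5. The change was 1.04 (SE 0.079, limma adjusted p = 6.30e-12) with no overlap of stages, and the peaks that reach the interval carry the enrichment of their whole length, interval included. A region 46.7 kb downstream (chr13:72487931-72518060) rose from 2.82 to 3.12 to 4.24 to 5.12 (0.84, SE 0.078, limma adjusted p = 2.93e-10).

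Some regions were called in every list of a stage and in none of the other. For H3K27ac, 7 of 115 regions were called only at E11.5 (1.91% of regions elsewhere) and 13 only at E17.5 (11.8% elsewhere). Of the 7, 3 lay at or within Lpcat1, with enrichments of 5.20 ± 0.606, 5.15 ± 1.55 and 4.31 ± 0.334 (SD, n = 4). Those called only at E17.5 included chr13:73593195-73596981 upstream of Lpcat1 (10.9 ± 2.11, SD, n = 6), chr13:72770806-72774185 upstream of Irx2 (6.92 ± 1.21) and the Tert promoter (6.89 ± 2.23). A further 5 lay at the upstream end of the window, of which 3 overlapped noncoding genes, and the nearest coding gene of the 5 was Adamts16, which starts outside the window. With an equal number of peaks taken from each list the balance turned, with 9 of 70 regions called only at the earlier stage and 5 only at the later (5.44% and 9.55% elsewhere).

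For H3K4me3, 2 of 47 regions were called only at the earlier and 2 only at the later stage, where 2.56% and 3.37% were elsewhere. The strongest was chr13:73265284-73266324 at E17.5 (14.2 ± 2.54, SD, n = 6), an intergenic region between Irx2 and Irx4. For H3K27me3, 29 of 379 regions were called only at E17.5 and 0 only at E11.5, where 4.99% and 1.18% were elsewhere. The 29 had low enrichments, led by the internal start of Slc12a7 (3.95 ± 0.353), an intron of Slc6a3 (3.30 ± 0.370) and a region upstream of hs754 (chr13:72418399-72425634, 3.08 ± 0.228). With peaks of a -log10 q of at least 5, 3 stage-exclusive regions were left.

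The comparison of genotypes asks whether the humanized allele changed the chromatin around it. No region of the window passed the test of level between genotypes for any mark at either stage by limma (adjusted p of at least 0.778). Among all regions of the genome, 0% were called higher or lower for 6 of the 7 comparisons. For H3K27me3 at E11.5, 0.0119% were higher and 0.0238% lower, none of them in the window. At an unadjusted p under 0.05 there were, in E11.5 and then E17.5 lists, 4 of 25 and 1 of 29 window regions for H3K27ac, 0 of 23 and 0 of 24 for H3K4me3, 1 of 21 and 0 of 56 for H3K27me3, and 2 of 49 for CTCF. The shares across the genome were 5.61%, 4.55%, 4.74%, 4.85%, 5.95%, 6.29% and 4.60% in the same order. Differences between genotypes in the window lay between -0.86 and 0.63 on the log2 scale for H3K27ac at E11.5 and between -0.13 and 0.17 for H3K27me3 at E17.5.

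The precision behind these counts differed between marks. In simulated lists, 54% and 32% of H3K27ac regions changed 2-fold were recovered for the earlier and later stage, against 84% and 90% for H3K4me3, 98% and 100% for H3K27me3 and 48% for CTCF. The simulation gave all regions of a comparison the same spread, taken from the median region, while real regions differ in spread. Regions with a larger spread would be recovered less often than these shares. A 2-fold change of H3K27ac or CTCF at a region would therefore often have been missed with this number of lists.

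At the Irx promoters no mark passed the test between genotypes. H3K27ac at Irx1 was 27.4 and 30.3 in wild type and 28.1 and 35.1 in humanized lists at E11.5 (log2 difference -0.04 after centring, SE 0.25, limma adjusted p = 0.99). At E17.5 it was 18.7, 19.98 and 13.1 in wild type and 10.8, 15.03 and 11.96 in humanized lists (-0.19, SE 0.27). H3K27me3 at Irx2 (chr13:72767747-72792345) was 9.29 and 7.71 in wild type and 10.1 and 10.9 in humanized lists at E11.5 (0.16, SE 0.13, limma adjusted p = 0.91). The 2 humanized lists were higher there, and at E17.5 the order was the reverse, with a mean of 11.98 ± 1.73 in wild type and 10.7 ± 0.832 in humanized lists (SD, n = 3). The difference between stages in the genotype effect was tested as an interaction: 0 of 14 H3K27ac, 0 of 19 H3K4me3 and 0 of 15 H3K27me3 regions were called by limma, with 1, 0 and 3 at an unadjusted p under 0.05.

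Of the 8 regions with an unadjusted p under 0.05, 1 was higher in humanized lists, the shared promoter of Ndufs6 and Mrpl36 (chr13:73476087-73477338), where H3K27ac at E11.5 was 5.33 and 5.09 in wild type and 8.40 and 9.73 in humanized lists (0.63, SE 0.29, limma adjusted p = 0.874). The other 3 for H3K27ac at E11.5 were lower in humanized lists: chr13:73453529-73454384 (-0.86), another in 1700112M02Rik (-0.75) and another in Lpcat1 (-0.72). H3K27ac at E17.5 at chr13:72079182-72080532, in an intron of the noncoding gene Gm40999, was 4.9998, 5.03 and 8.42 in wild type and 3.21, 3.10 and 3.24 in humanized lists (-0.65, SE 0.27, limma adjusted p = 0.999). H3K27me3 at the Slc6a3 promoter at E11.5 (chr13:73681157-73687525) was 10.3 and 9.11 in wild type and 7.40 and 10.3 in humanized lists (-0.30, SE 0.13, limma adjusted p = 0.778). CTCF at chr13:73553863-73554280 was 9.90, 6.01 and 10.9 in wild type and 4.04, 6.40 and 5.10 in humanized lists (-0.63, SE 0.27, limma adjusted p = 0.978). CTCF at chr13:72590547-72591153, 149 kb downstream of hs754, was 12.1, 8.99 and 8.81 in wild type and 8.54, 3.46 and 6.21 in humanized lists (-0.66, SE 0.29, limma adjusted p = 0.978). In none of these did the difference pass the adjustment over all regions.

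Presence was compared as regions called in every list of a genotype and in no list of the other, where no test of a single region can pass 0.05. For H3K27ac at E11.5, 2 of 59 regions were called only in wild type and 2 only in humanized lists, against 1.65% and 2.76% of regions outside the window. The wild type regions were chr13:71314461-71314801 (2.67 and 3.19) and chr13:73648665-73649194 in an intron of Lpcat1 (4.56 and 3.24). The humanized regions were chr13:72775376-72775803, just upstream of Irx2 (3.85 and 4.74), and chr13:73218236-73218639 (3.46 and 3.48). At E17.5, 1 of 83 regions was called only in wild type lists and 0 only in humanized lists (1.22% and 0.0236% elsewhere). That region lay in Slc12a7 (chr13:73911877-73912902, at 3.76, 2.33 and 4.42).

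H3K4me3 had 0 exclusive regions of either kind among 38 at E11.5 (0.883% wild type and 1.16% humanized elsewhere) and among 38 at E17.5 (0.333% and 0.0524%). CTCF had 1 wild type region of 120 and no humanized region (1.27% and 0.0291% elsewhere). It lay between Lpcat1 and Slc6a3 (chr13:73667941-73668271), with 6.04, 3.64 and 5.11 in wild type lists and no peak in humanized lists. Its sequence held no motif match in the bases shown. H3K27me3 at E17.5 had, of 378 regions, 6 wild type and 1 humanized region, against 1.15% and 0.00699% elsewhere. The 6 had mean enrichments of 2.42 to 2.78, and the humanized region was chr13:72847055-72847459 (2.92, 2.46 and 2.78).

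H3K27me3 at E11.5 had 8 regions of 70 called only in humanized lists and 0 only in wild type lists, against 4.00% and 0.168% elsewhere. Of the 8, 5 lay between chr13:71300444-71302726 and chr13:71477607-71478222, on the 3′ side of Irx1 and far from it, and 2 lay beside hs754. One of these (chr13:72434620-72436073) is the upstream end of peaks that span the interval, and wild type peaks were called on the other side of the interval. With all peaks that touch the interval left out, 7 of 69 regions were exclusive to humanized and 1 to wild type lists. The humanized lists were larger in the window, with 48 and 55 peaks against 42 and 28. With an equal number of peaks taken from each list, 3 regions were exclusive to a genotype, and 3 with a -log10 q of at least 5.

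Immediately upstream of hs754, H3K27me3 at E11.5 differed in extent between genotypes. Within 10 kb upstream it covered 0 and 0 bp in wild type lists and 2342 and 2421 bp in humanized lists. In both humanized lists a peak spanned the whole replaced interval (11653 and 11239 bp in mm39 coordinates with the inserted length removed) and reached 1454 and 1189 bp beyond its upstream edge. The widest peak touching the interval in the wild type lists was 3098 and 857 bp. A second humanized region lay farther upstream (chr13:72430534-72432060; 2.27 and 3.14). Downstream the genotypes overlapped in extent, with 8564 and 5210 bp of 10 kb covered in wild type and 8341 and 8867 bp in humanized lists. The exact permutation test of 2 lists against 2 cannot go below p = 0.333. Since the peaks of the humanized lists include the human sequence, their extent was called partly on that sequence.

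By E17.5 a single H3K27me3 domain crossed hs754 in all 6 lists. It was 27130, 21674 and 21874 bp wide in wild type and 28476, 28521 and 23082 bp in humanized lists, with fold enrichments of 8.43, 7.66 and 8.22 and of 8.67, 8.68 and 7.92. The difference between genotypes was 0.091 on the log2 scale (SE 0.09, limma adjusted p = 0.862). The upstream coverage of 10 kb was 6813, 5697 and 5388 bp in wild type and 7397, 7472 and 4816 bp in humanized lists, and the genotypes overlapped.

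**Figure D4:**
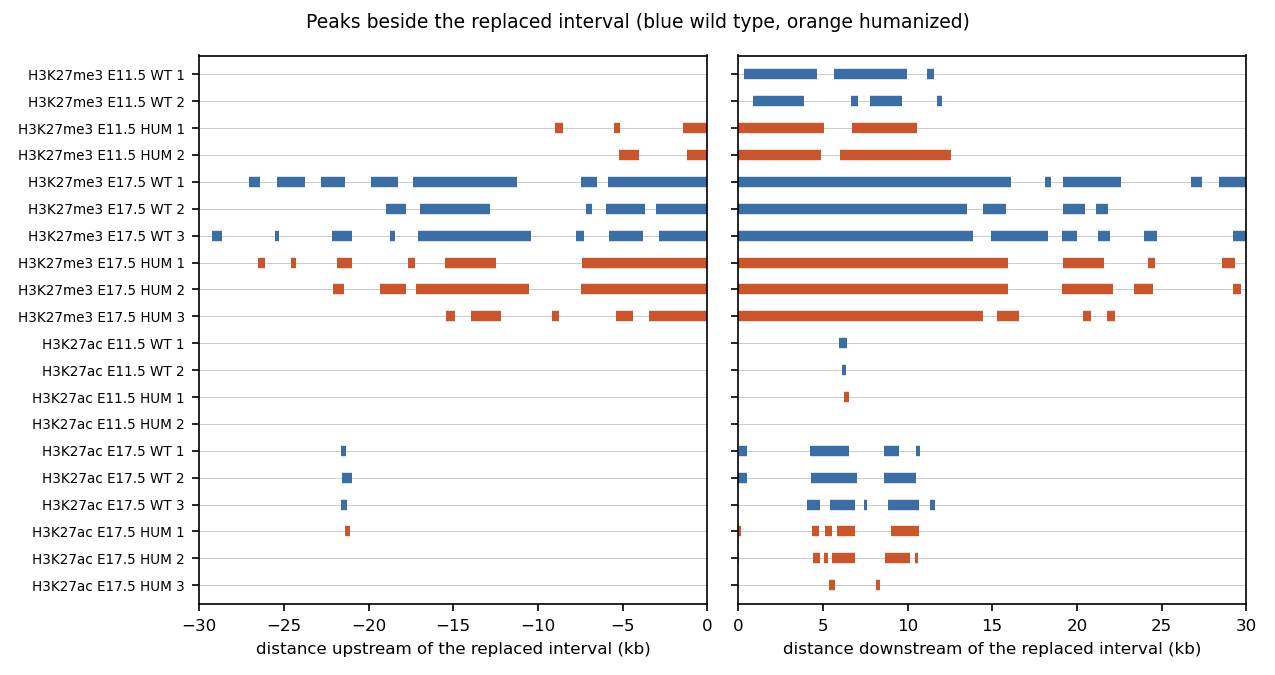
Peaks of every list within 30 kb upstream and downstream of the replaced interval (distance in kb), with 1 row per list, blue for wild type and orange for humanized. H3K27me3 at E11.5 reaches upstream of the interval in the 2 humanized lists (2342 and 2421 bp of 10 kb) and in neither wild type list, and at E17.5 it does so in all 6.

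Within 10 kb of hs754, H3K27ac was called only downstream. At E17.5 peaks lay at the downstream edge in wild type replicates 1 and 2 (4.20 and 4.37) and humanized replicates 1 and 2 (4.03 and 4.05). Peaks that touch the interval carry the value of their whole length. A region 4.05 kb downstream (chr13:72445262-72448256) was called in all 6 lists of E17.5, at 4.88, 6.20 and 4.85 in wild type and 4.97, 4.31 and 2.96 in humanized lists (-0.15, SE 0.24, limma adjusted p = 0.999). Part of this region was also called at E11.5, in both wild type lists (4.30 and 3.83) and in humanized replicate 1 (3.35). H3K27ac covered 3565, 4699 and 3665 bp of the 10 kb downstream in wild type lists of E17.5, and 3051, 3355 and 605 bp in humanized lists. All 3 humanized lists lay below all 3 wild type lists, and the lowest, replicate 3, came from the smallest list of that mark and stage. An exact permutation test of 3 lists against 3 cannot go below p = 0.1. The same lists leaned this way outside the window, with 1.22% of regions called only in wild type and 0.0236% only in humanized lists. Whether other stretches of this length separate the genotypes as often was not tested. No list had an H3K27ac peak within 10 kb upstream. About 21 kb upstream, H3K27ac was called at E17.5 in all 3 wild type lists (3.51, 3.27 and 3.47) and in humanized replicate 1 (3.20).

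H3K4me3 was sparse at the flanks. At E11.5 it covered 484 bp of the 10 kb downstream in humanized replicate 1 and 0 bp in the other 3 lists, and at E17.5 466 bp in wild type replicate 1 and 0 bp in the other 5. CTCF was called 1.2 kb downstream in 2 of 3 wild type lists (chr13:72442435-72442703; 5.07 and 4.13) and in 0 of 3 humanized lists. It was called at chr13:72446868-72447092 in 1 list of each genotype and at chr13:72413731-72413943, upstream, in 1 wild type list. Of the sites called in every list, the nearest upstream was 8.29, 8.49 and 10.4 in wild type and 11.8, 9.35 and 5.004 in humanized lists (-0.0036, SE 0.29). The nearest downstream was 5.15, 5.59 and 3.82 against 4.83, 5.38 and 4.90 (0.20, SE 0.26), and the genotypes overlapped at both.

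Coverage of the window was compared between genotypes in the same way. H3K27me3 covered 4.09% ± 0.911 in wild type and 5.53% ± 0.329 in humanized lists at E11.5 (n = 2, exact permutation test, p = 0.333, the smallest possible), and 18.8% ± 4.75 and 14.3% ± 2.63 at E17.5 (n = 3, p = 0.2). Relative to the genome of the same list it was 2.38 ± 0.00333 and 2.51 ± 0.554, and 6.03 ± 0.785 and 5.78 ± 0.698 (exact permutation test, p = 1 and 0.5). CTCF covered 1.34% ± 0.231 and 1.04% ± 0.0836 (exact permutation test, p = 0.1), the smallest value 3 lists against 3 allow, while the ratio to the genome gave p = 0.5. H3K27ac at E17.5 relative to the genome was 0.812 ± 0.0455 in wild type and 0.723 ± 0.0461 in humanized lists (exact permutation test, p = 0.1, also the smallest possible). Adjusted by Benjamini-Hochberg over the 14 genotype tests of coverage, no permutation p was below 0.56.

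RNA-seq of the same tissue gives the output of the genes in the window. Libraries held 18124370 to 23513110 counts on genes at the earlier stage and 16414369 to 24272569 at the later. Of the 13 coding genes, 11 passed the filter on low counts in the comparison of stages. Of these, 2 rose and 5 fell at E17.5 (edgeR quasi-likelihood test, adjusted p under 0.05), against 38.1% and 38.9% of all genes tested. The Iroquois genes fell together, as did Slc12a7 and Mrpl36, while Slc6a3 and Nkd2 rose.

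Irx1 was at 38.2 CPM in the lowest, 48.5 in the median and 55.4 in the highest of the 8 libraries at E11.5, and at 6.88, 9.79 and 21.7 CPM at E17.5. The stages did not overlap, a log2 change of -2.16 (SE 0.20, edgeR adjusted p = 1.78e-08). Irx2 went from 84.3, 99.2 and 108 CPM to 19.96, 23.5 and 34.6 CPM (-1.98, SE 0.11, edgeR adjusted p = 1.25e-11), also without overlap. These counts ignore strand, and Irx2 overlaps Gm20554, a noncoding gene on the other strand. Reads in the overlap cannot be assigned to either gene without strand. Counted by strand, the changes of Irx1 and Irx2 were -2.14 and -1.96.

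Irx4 was low at both stages. It had 11 to 25 counts per library at E11.5, 145 in all, and 3 counts at E17.5, all in wild type replicate 4. Pooled counts over total counts on genes gave a ratio of E11.5 to E17.5 of 46.5. Its exact 95% interval of 15.6 to 228 covers counting error only. By edgeR the log2 change was -5.08 (SE 0.50, edgeR adjusted p = 3.54e-08). Slc6a3 moved the other way, from 33 counts over 8 libraries to 2033, or from 0.0506, 0.143 and 0.487 CPM to 8.66, 13.1 and 18.0 CPM (6.04, SE 0.28, edgeR adjusted p = 1.68e-12). Slc12a7 went from 68.7, 88.0 and 100 CPM to 7.58, 9.89 and 19.9 CPM (-3.00, SE 0.18, edgeR adjusted p = 5.48e-11). Mrpl36 changed by -1.36 (SE 0.14, edgeR adjusted p = 6.35e-08) and Nkd2 by 0.41 (SE 0.15, edgeR adjusted p = 0.0218).

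**Figure D5:**
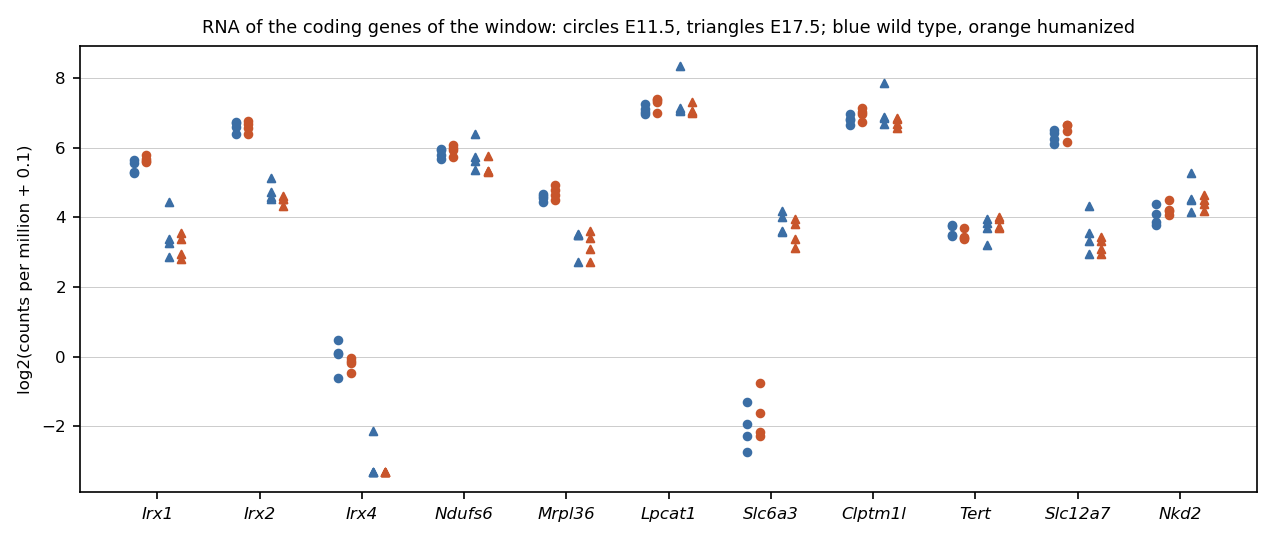
RNA level of the coding genes of the window, as log2 of CPM plus 0.1, with 1 point per library, circles for E11.5 and triangles for E17.5, blue for wild type and orange for humanized. Slc6a3 is the gene with the widest gap between stages (0.0506 to 0.487 CPM against 8.66 to 18.0 CPM), and the Irx genes and Slc12a7 lie lower at E17.5.

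Ndufs6 (-0.25, SE 0.14), Lpcat1 (0.14, SE 0.18), Clptm1l (0.06, SE 0.15) and Tert (0.23, SE 0.12) did not pass the test. Wild type replicate 1 of E17.5 stood apart for several of them, with Lpcat1 at 327 CPM against 133 to 141 in the other 3 wild type libraries and Clptm1l at 232 against 103 to 117. It was also the highest E17.5 library for Irx1 and Irx2. Without it, Ndufs6 (-0.36) and Tert (0.32) passed. Slc6a18 had 0 CPM in every library, and Slc6a19 was not tested, at no more than 0.146 CPM and then 0.747. Among other genes of the window, the noncoding RNA Gm36529 rose (4.51, SE 0.48), Gm20554 fell (-1.58, SE 0.16), and the pseudogenes Rpl9-ps4 (-1.06) and Gm10263 (-0.79) fell. Reads of the pseudogenes may be shared with their parent genes.

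Read beside the marks at the same genes, the promoter H3K4me3 and RNA of Irx1, Irx2 and Slc6a3 changed in the same direction between stages. Slc12a7 RNA fell, with lower H3K4me3 at its internal start and no call at its annotated start. Irx4 RNA fell while its H3K4me3 was at 12.5 and 15.6 and its H3K27me3 fell. Of the 12 promoter regions of H3K4me3 called in all lists of both stages, 1 was higher and 3 lower at E17.5. These lay at Slc6a3, Irx1, Irx2 and the internal start of Slc12a7. Mrpl36 RNA fell and Nkd2 RNA rose without a called change of promoter H3K4me3. The Tert promoter had H3K27ac called only at E17.5, while its RNA did not pass the test (0.23). Irx1 and Irx2 carried broad H3K27me3 at both stages together with H3K4me3, H3K27ac and RNA. These are separate measurements on different litter pools, and no correlation over genes was computed.

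Between genotypes, 0 genes of the window were called at either stage by edgeR, and 0 by DESeq2. At an unadjusted p under 0.05 there was 1 of 13 tested at E11.5, Gm10263, and 0 of 14 at E17.5, against 5.94% and 1.10% of all genes tested. Irx1 was at 49.6, 47.2, 38.2 and 39.6 CPM in wild type and at 50.6, 55.4, 47.6 and 49.5 CPM in humanized libraries at E11.5 (0.19, SE 0.11, edgeR adjusted p = 0.577). Irx2 differed by -0.036 (SE 0.11) at E11.5 and -0.28 (SE 0.19) at E17.5, and Irx1 by -0.43 (SE 0.34) at E17.5, where wild type replicate 1 was the highest library. In simulated counts, 71.7% of genes changed 2-fold were recovered at E11.5 and 18.8% at E17.5, so a 2-fold change would often have been missed at the later stage. The interaction of genotype and stage called 0 of 15 genes, with 0 at an unadjusted p under 0.05.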

How the data were processed

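The authors aligned ChIP-seq reads to mm39, or to mm39 carrying the human sequence for humanized samples, with Bowtie2 2.4.2, removed duplicate and multi-mapping reads, and called peaks per replicate with MACS2 2.2.7.1 (tools and build per the labels). Each deposited peak list gives a fold enrichment over local background, which is a ratio, with -log10 p and q, and the caller's own score, which was not used. For H3K27me3 the format is that of broad peaks, and the settings behind it are not given in the sources used here. The deposited RNA files hold raw counts per gene from STAR 2.7.9a, made by the authors with GENCODE release 31. Lines that name no gene, 48.1% to 58.4% of reads, were left out.

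Positions of humanized lists above 72441604 were reduced by 390 bp. After this, matched CTCF peaks of the 2 genotypes were offset by medians of -6 to 4 bp. Peaks reaching into the replaced interval were cut to the part outside it and kept their value. Peaks were merged at an overlap of 1 bp on autosomes and X. Regions called in every list were tested with limma 3.58.1 on log2 fold enrichment, centred on the median of each list, with Benjamini-Hochberg adjustment over all such regions. Coverage was compared with exact two-sided permutation tests over lists. Counts were tested with edgeR 4.0.16 (filterByExpr, TMM, quasi-likelihood test, adjustment over all genes), with DESeq2 1.42.0 as an alternative; 56236 of 56923 gene IDs matched GENCODE M39, which gave gene positions. Other steps used R 4.3.3, Python 3.11.15 and pysam 0.24.0.

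Groups and replicate numbers came from the sample labels. Results were recomputed after keeping peaks at a -log10 q of 5 or more, with merging at 50% of the shorter peak, and with equal numbers of peaks per list, uncentred values, the mean of a region's peaks, the replicate number as a block, wild type samples only, other count settings, and leaving out each replicate. Dropping peaks that touch the interval, a crossed block and the alternatives for coverage were chosen after seeing the data. Regions named are those called in every list of a group and in none of the other, those with an adjusted p under 0.05, the nearest to the interval, those at coding promoters and the strongest; genes named are the coding genes and other called genes of the window. Members, lists and tests were chosen with earlier results of these data known. Tests were tried on simulated data with planted 2-fold and 4-fold changes. Input samples were not analysed here, and 1 list of marker genes is not reported here.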

Additional observations from a re-analysis of the deposited data

Results flagged for a closer look

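Of 108 groups of 4 to 10 samples tested for a sample far from the others, 9 were flagged by Dixon's test, where chance flags about 1 in 20 groups. In RNA at E17.5, wild type replicate 1 was the highest for Lpcat1 (327 CPM, the other 3 between 133 and 141) and for Clptm1l (232 CPM, between 103 and 117). Wild type replicate 4 was the only library of its group with Irx4 counts (0.126 CPM against 0), wild type replicate 2 was the lowest for Mrpl36 (6.47 CPM, between 11.1 and 11.3), and humanized replicate 3 was the highest for Ndufs6 (53.7 CPM, between 39.8 and 40.5). In H3K27me3 at E17.5, wild type replicate 1, the largest list of that mark, was the highest at chr13:71599072-71619419 (fold enrichment 4.32, the other 5 between 3.78 and 3.95) and at chr13:72094978-72133864, the Irx1 region (11.45, between 9.52 and 10.2). At E11.5, humanized replicate 1 was the lowest at chr13:71698240-71705868 (2.88, between 3.25 and 3.30), and wild type replicate 2 the highest at chr13:71709279-71713043 (3.30, between 2.83 and 2.89).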

How the results depend on the processing

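Level tests and RNA tests between genotypes called 0 regions and 0 genes of the window under every alternative run. Counts of regions exclusive to a genotype or stage moved with how peaks were taken. With a -log10 q of at least 5, exclusive regions numbered 0 for H3K27ac at E11.5, 3 for H3K27me3 at E11.5, 0 for H3K27me3 at E17.5, and, between stages, 11 for H3K27ac and 3 for H3K27me3. With equal numbers of peaks per list they numbered 0 for CTCF, 0 for H3K27ac at E17.5, 3 and 2 for H3K27me3 at E11.5 and E17.5, and 10 for H3K27me3 between stages. An overlap of 50% gave 5 for H3K27me3 and 1 for H3K4me3 at E11.5. Wild type lists alone gave 80 for H3K27me3 between stages. Regions called between stages by level numbered 4 for H3K27ac and 5 for H3K27me3 at a -log10 q of at least 5, 7 for H3K27me3 without centring, 9 with the mean of a region's peaks, and 9 for H3K27me3 and 3 for H3K4me3 in wild type lists alone. The cause was not tested. The sign turned at chr13:71654856-71657084 for H3K27ac without centring (0.21) and at the Irx1 H3K27me3 region with the mean of its peaks (-0.012).

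With wild type lists alone (2 against 3, smallest exact permutation p 0.2), the E17.5 over E11.5 ratio of coverage was 4.60 for H3K27me3 and 0.848 for H3K4me3 as a share of the window, and 2.54, 0.616 and 0.809 relative to the genome for H3K27me3, H3K27ac and H3K4me3. Leaving out each replicate gave 2 to 5 exclusive regions for CTCF, 9 to 15 and 1 to 4 for H3K27ac at E11.5 and E17.5, 12 to 25 and 8 to 25 for H3K27me3, and 1 to 6 and 0 to 1 for H3K4me3. Between stages it gave 20 to 26, 29 to 47 and 3 to 5 exclusive regions for H3K27ac, H3K27me3 and H3K4me3, the 47 without humanized replicate 3 of E17.5. It gave 5 to 8, 12 to 17 and 6 to 8 regions called by level, and 6 to 9 coding genes. The coverage ratio of H3K27ac ranged from 1.29 to 1.49 and passed the test, at 1.49, without the H3K27ac list of humanized replicate 3 of E17.5.

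Same-numbered samples shared little in ChIP-seq and in RNA at E11.5, but replicates 1 and 2 of RNA at E17.5 did share structure (0.51 and 0.56). Deviations of same-numbered samples correlated from -0.24 to 0.076 in ChIP-seq, from 0.041 to 0.15 in RNA at E11.5 and from 0.043 to 0.56 at E17.5. With the replicate number as a block, 0 window regions and 0 window genes were called between genotypes. For RNA at E17.5 the block moved genes with an unadjusted edgeR p under 0.05 from 207 to 717 of 18763, with 0 in the window. For H3K27me3 at E11.5, where the correlation was -0.24, crossed numbers also gave 0 in the window. Read depth is unknown for peaks, and with 2 or 3 lists a group the presence of a single region cannot be tested.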
